A study of Mus musculus with 125 samples.

Results

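Globin genes were followed through single mouse embryos at the 2-cell stage. The 6 genes named for this purpose were the alpha-type genes Hba-a1, Hba-a2 and Hba-x and the beta-type genes Hbb-bs, Hbb-bt and Hbb-y, chosen by measured values of these same libraries, their CPM and the share of embryos with counts, parthenotes against 2PN embryos first. Of these, 3 had a row among the 43421 genes analysed, namely Hba-a1, Hba-a2 and Hba-x. The 3 beta-type genes were not analysed here. The choice drew on all groups, so the p-values given below for these genes are not independent of it in any contrast.

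Libraries came from zygotes chosen 10 h after fertilization, from which the second polar body had been taken out, and 2-cell embryos were lysed singly at 34 h. Embryos whose titles start with P were C57BL/6 parthenotes (31 embryos), which develop from an egg without a sperm genome. In C57BL/6 x JF1/Ms hybrids there were 43 embryos from zygotes with 2 pronuclei (B2PN), 11 from zygotes with 1 pronucleus (B1PN) and 8 B1PN embryos that the submitters called parthenogenetic in silico. From the cross JF1/Ms x C57BL/6 the same classes held 21 (J2PN), 3 (J1PN) and 4 embryos (J1PN called parthenogenetic). The labels give the same protocol for all samples, parthenotes included, and do not say how parthenotes were activated. They do not say which strain was the mother, and nothing says that embryos of a group came from separate litters, and the p-values reflect variation among the embryos alone. The libraries compared held 533276 to 4887274 gene counts, with a median of 3392406. The median was 3867740 in B2PN embryos, 3185905 in parthenotes and 2522056 in J2PN embryos. Levels are given as CPM, the counts of a gene scaled to the total gene counts of its library, so more globin RNA per embryo and less of other RNA cannot be told apart.

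Hemoglobin is a tetramer of alpha-type and beta-type chains, each holding a heme group that binds oxygen. Hba-a1 and Hba-a2 encode the adult alpha chain. Hba-x encodes the zeta chain of the first, primitive red cells, and the beta-type genes lie in a cluster on another chromosome. In red cell precursors these genes are transcribed at very high levels under transcription factors that include Gata1 and Klf1, and distal enhancers that lie partly within the neighbouring gene Nprl3 act on the alpha cluster. Expression in the cleavage-stage embryo is not part of this textbook picture.

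In the GRCm38.p6 annotation the alpha genes lie on chromosome 11, plus strand. Hba-x spans chr11:32276600-32278116, Hba-a1 spans chr11:32283672-32284486 and Hba-a2 spans chr11:32296492-32297310, so the adult copies cover 815 and 819 bases. The 200 bases before each start site, from RefSeq sequence of that build, are shown because the adult copies are almost the same in sequence while Hba-x is not. Capitals mark matches to TATAA (core of the TATA box), to CCAAT (the box of that name), to CACCC (the kind of site that Klf1 binds) and to GATAA (core of a GATA site), each searched on both strands. The windows are chr11:32283472-32283671 for Hba-a1, chr11:32296292-32296491 for Hba-a2 and chr11:32276400-32276599 for Hba-x.
Hba-a1: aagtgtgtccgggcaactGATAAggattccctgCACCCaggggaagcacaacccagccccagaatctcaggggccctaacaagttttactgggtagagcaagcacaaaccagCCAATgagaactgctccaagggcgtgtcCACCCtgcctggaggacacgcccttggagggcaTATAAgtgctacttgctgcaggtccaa
Hba-a2: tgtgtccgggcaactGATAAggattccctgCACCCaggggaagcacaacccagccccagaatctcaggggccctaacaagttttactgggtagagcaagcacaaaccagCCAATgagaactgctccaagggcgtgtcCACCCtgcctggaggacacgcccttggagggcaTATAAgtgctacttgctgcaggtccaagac
Hba-x: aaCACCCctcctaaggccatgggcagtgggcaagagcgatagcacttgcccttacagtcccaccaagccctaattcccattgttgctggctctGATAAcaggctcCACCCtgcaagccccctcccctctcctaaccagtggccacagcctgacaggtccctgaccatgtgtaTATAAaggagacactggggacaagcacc

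Over 300 bases around the start, Hba-a1 and Hba-a2 shared an identical run of 297 bases, offset by 3 positions, and were 98% identical. Hba-x was 54.7% identical to Hba-a1 and 54.5% to Hba-a2, with a longest shared run of 10 bases. The adult copies each held all 4 motifs, and Hba-x held 3, without a CCAAT match in its window. Of 32851 RefSeq windows of the same length, 18.5% held TATAA, 29.3% held CCAAT, 45.5% held CACCC, 18.1% held GATAA, and 0.481% held all 4. Such a match describes letters and does not show a bound site.

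The near identity of the adult copies also shows in the counts. Of 110 embryos with a nonzero Hba-a1 value, 54 had a value that was not whole, and in 51 of these the Hba-a2 value was not whole either. Their sum was a whole number in 116 of all embryos compared. No source used here gives the rule for reads that match both copies, so the summed alpha-globin level is given first and each copy is uncertain.

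Alpha-globin counts were present in every parthenote and every embryo of the cross C57BL/6 x JF1/Ms. In parthenotes the summed level of Hba-a1 and Hba-a2 ran from 8.85 CPM to 131.6 CPM, with a median of 49.4 CPM and a mean of 51.5 ± 28.7 CPM (SD, n = 31). In B2PN embryos it ran from 0.740 to 62.3 CPM, with a median of 11 and a mean of 16.6 ± 15.9 CPM (SD, n = 43). The ranges overlapped, with 30 of 31 parthenotes above the B2PN median, 7 above the highest B2PN embryo and 17 of 43 B2PN embryos below the lowest parthenote.

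In B1PN embryos the sum ran from 5.67 to 54.8 CPM, with a median of 21.4 and a mean of 22.7 ± 14.3 CPM (SD, n = 11). In B1PN embryos called parthenogenetic it ran from 1.18 to 78.4 CPM, with a median of 26.5 and a mean of 30.6 ± 27.5 CPM (SD, n = 8). These 8 embryos were spread widely: 3 of them lay below 6 CPM and below every parthenote.

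Few alpha-globin counts were found in the reciprocal cross. Libraries of both crosses were processed with GRCm38, and whether JF1/Ms reads were lost or moved between the copies was not tested. In J2PN embryos the sum ran from 0 to 46.9 CPM, with a median of 1.54 and a mean of 5.44 ± 10.53 CPM (SD, n = 21). Counts were present in 15 of 21 J2PN embryos (71.4%, exact Clopper-Pearson 95% interval 47.8% to 88.7%). With at least 10 counts asked for, 7 of 21 J2PN embryos and 36 of 43 B2PN embryos remained. The highest J2PN embryo was also the shallowest library, with 533276 gene counts, of which 25 were alpha-globin counts. The 3 J1PN embryos had 0, 0.336 and 1.25 CPM, from 5 counts in all. The 4 J1PN embryos called parthenogenetic had 0, 0.284, 1.96 and 4.99 CPM, from 9 counts in all.

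By median the order was parthenotes, B1PN called parthenogenetic, B1PN, B2PN, J2PN, J1PN called parthenogenetic and J1PN. In each of the 6 neighbouring pairs the ranges overlapped. Exact intervals of shares cover only the sampling of embryos, and floors of 3 counts cover counting error only, because PCR copies of a molecule could not be recognised.

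**Figure D1:**
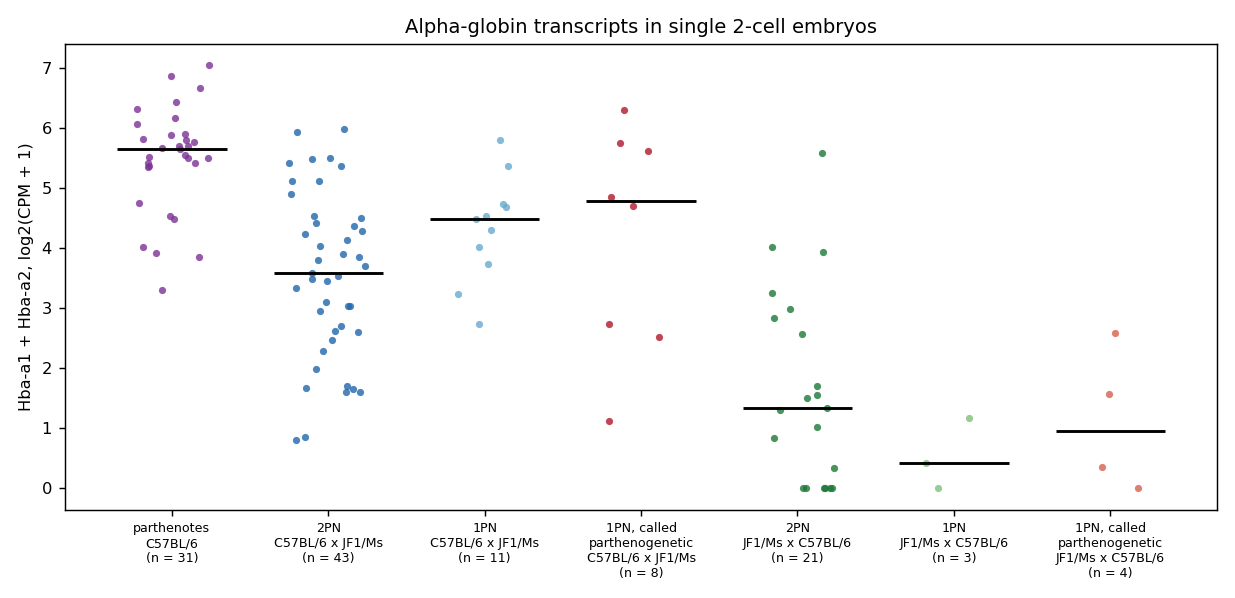
Summed Hba-a1 and Hba-a2 level, as log2(CPM + 1), in each embryo, with groups on the horizontal axis and a line at each group's median. Parthenotes lie highest, with a median of 49.4 CPM, and the 3 groups of JF1/Ms x C57BL/6 lie lowest, with a J2PN median of 1.54 CPM.

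The comparison of parthenotes with B2PN embryos sets embryos without a sperm genome against hybrids with both parental genomes. It also sets pure C57BL/6 embryos against hybrids, so strain and sperm genome cannot be told apart. It is the contrast for which the globin genes were chosen, and the values are a description without a test. The log2 fold change was 1.38 ± 0.33 (SE of the edgeR fit) for the sum, 0.94 ± 0.34 for Hba-a1 and 2.50 ± 0.43 for Hba-a2. In this contrast 44.4% of 24380 genes passed an adjusted p of 0.05, and the median log2 fold change of all genes was 0.19.

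Each copy on its own had a different spread. Hba-a1 ran from 2.67 to 76.9 CPM in parthenotes, with a median of 30.4, and from 0.494 to 53.8 CPM in B2PN embryos, with a median of 9.51. For Hba-a1, 26 of 31 parthenotes lay above the B2PN median and 3 above the highest B2PN embryo. Hba-a2 ran from 2.36 to 54.7 CPM in parthenotes, with a median of 18.95, and from 0 to 20.2 CPM in B2PN embryos, with a median of 0.744. For Hba-a2, all 31 parthenotes lay above the B2PN median, 13 lay above the highest B2PN embryo, and 29 of 43 B2PN embryos lay below the lowest parthenote.

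The embryonic gene Hba-x was at the limit of detection. It had counts in 6 of 31 parthenotes (19.4%, exact interval 7.45% to 37.5%), with at most 7.5 counts. It had counts in 2 of 43 B2PN, 1 of 8 B1PN called parthenogenetic, 2 of 21 J2PN and 1 of 4 J1PN called parthenogenetic embryos. None of 11 B1PN and 3 J1PN embryos had a count, and 3 counts over the group would be 0.0796 and 0.329 CPM. The highest counts were 10 in 1 B1PN embryo called parthenogenetic and 10 in the shallow J2PN embryo named above. Hba-x did not pass the filter on low counts and was not tested, whereas Hba-a1 and Hba-a2 passed.

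The 1PN embryos called parthenogenetic ask whether hybrid-cross embryos without a sperm genome share the higher level. The sum was not called different between B1PN embryos called parthenogenetic and B2PN embryos (edgeR log2 fold change 0.62 ± 0.51, 95% interval -0.392 to 1.63, adjusted p = 0.399), and 5 of 8 embryos lay above the B2PN median. Hba-a2 passed the test with a log2 fold change of 1.96 ± 0.60 (edgeR adjusted p = 0.0123), and 7 of 8 embryos lay above the B2PN median. Hba-a1 did not, at 0.03 ± 0.56 (edgeR adjusted p = 0.982). In this contrast 22.4% of all genes were called. The Hba-a2 call was lost with a replicate block (2.08, edgeR adjusted p = 0.0796) and without the embryos of the later listings (1.70, edgeR adjusted p = 0.0519). The comparison shares the B2PN embryos with the parthenote comparison. An embryo without a sperm genome is not a hybrid, so strain and sperm genome cannot be told apart here either.

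Set directly against these 8 embryos, parthenotes were not called different in the sum (edgeR log2 fold change 0.76 ± 0.58, 95% interval -0.384 to 1.91, adjusted p = 0.591). This was so for Hba-a1 (0.92 ± 0.62, edgeR adjusted p = 0.521) and Hba-a2 (0.55 ± 0.73, edgeR adjusted p = 0.797) too, in a contrast that called 1.87% of genes. B1PN embryos not called parthenogenetic did not differ from B2PN embryos past the threshold in the sum (0.49 ± 0.46, 95% interval -0.416 to 1.39, edgeR adjusted p = 1). That contrast called 0.607% of genes, and 9 of 11 B1PN embryos lay above the B2PN median.

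The reciprocal 2PN hybrids differed in level, in libraries whose values had also served to choose these genes. The sum fell by 1.77 on the log2 scale in J2PN against B2PN embryos (SE 0.43, edgeR adjusted p = 0.000396), and 18 of 21 J2PN embryos lay below the B2PN median. Hba-a1 fell by 2.15 (SE 0.45, edgeR adjusted p = 5.12e-05). Hba-a2 did not pass the test at -0.87 ± 0.54 (edgeR adjusted p = 0.2). Over all genes 40.2% were called. Without the shallow J2PN embryo, Hba-a2 was at -1.55 with an edgeR adjusted p of 0.0157, and the sum was at -2.16 with an adjusted p of 1.65e-05. Without the 5 J2PN embryos under 1500000 gene counts, the sum was at -1.91 (edgeR adjusted p = 0.000371).

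Within JF1/Ms x C57BL/6 the counts were too few for a sized difference. J1PN embryos had 1 Hba-a1 count and 4 Hba-a2 counts in all, against 155.5 and 62.5 over the 21 J2PN embryos. Embryos called parthenogenetic had 8 Hba-a1 counts and 1 Hba-a2 count. The sum passed the test neither in J1PN (edgeR adjusted p = 0.389, 0.0369% of genes called) nor in J1PN called parthenogenetic (edgeR adjusted p = 0.146, 31.7% of genes called). The difference between crosses in the effect of the parthenogenetic call was 2.51 ± 1.17 for the sum (edgeR adjusted p = 0.12), in a test that called 16.6% of genes. For Hba-a2 that difference passed (edgeR adjusted p = 0.0238), but it rests on the single Hba-a2 count of 4 embryos. It did not pass with embryo 1 or embryo 2 of that group left out (edgeR adjusted p = 0.096 and 0.0838). For the 1PN effect the difference in the sum was not called (edgeR adjusted p = 0.317, 0.0205% of genes called).

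**Figure D2:**
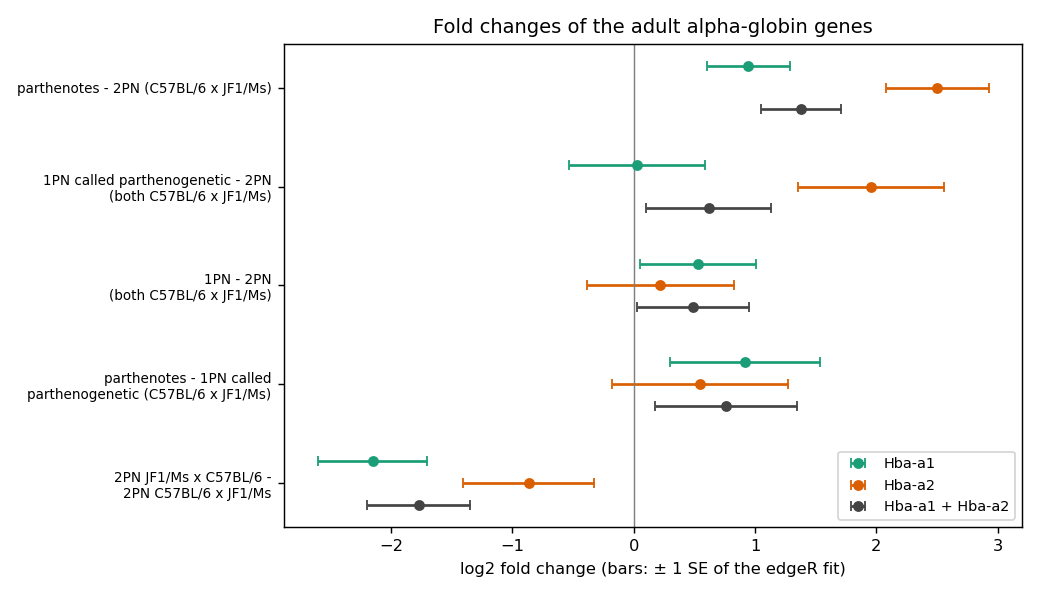
Log2 fold change of Hba-a1, Hba-a2 and their sum in 5 contrasts, as points with bars of 1 SE of the edgeR fit. Hba-a2 lies at 2.50 in parthenotes against B2PN embryos and at 1.96 in B1PN embryos called parthenogenetic, while Hba-a1 lies at 0.94 and 0.03.

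The share of alpha-globin counts assigned to Hba-a2 was described by group. This measure and its minimum of 10 alpha-globin counts per embryo were chosen after the values of both copies had been seen, so it is given without a test and adds no support to the fold changes above. In parthenotes it ran from 9.93% to 81.1%, with a median of 39.9% and a mean of 40.6% ± 15.7 (SD, n = 31). In B2PN embryos it ran from 0% to 47.6%, with a median of 8.92% and a mean of 13.6% ± 12.1 (SD, n = 36). Parthenotes and B2PN embryos overlapped, and 26 of 31 parthenotes but 8 of 36 B2PN embryos had a share of at least 25%.

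B1PN embryos had a mean share of 13.4% ± 11.9 (SD, n = 11) and B1PN embryos called parthenogenetic 52.0% ± 24.5 (SD, n = 7). The means of these 2 groups, both scored as 1PN, lay 38.6 percentage points apart. In the first group 10 of 11 embryos lay under 25%, and in the second 0 of 7, with the lowest at 25%. This cut was not planned. The lowest embryo lay on it, with 5 of its 20 alpha-globin counts assigned to Hba-a2. The minimum left out the remaining called embryo, which had 4 alpha-globin counts, none of them Hba-a2. With at least 1 count asked for, the called embryos ran from 0% to 94.4%, with 1 of 8 under 25%, and the means lay 32.1 points apart. The ranges of both groups overlapped under either minimum. In the 7 J2PN embryos that could be used the share ran from 5.83% to 96.2%, with a median of 17.2%. Since reads of the copies are shared in part, this is a share of assigned counts and not of molecules.

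**Figure D3:**
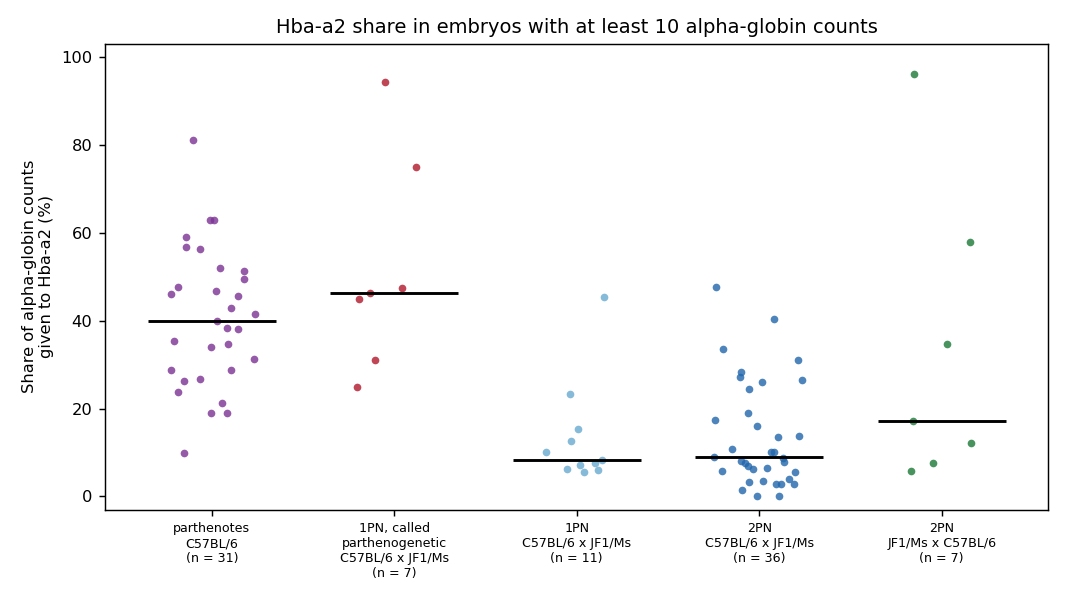
Percentage of alpha-globin counts assigned to Hba-a2 in each embryo with at least 10 such counts, by group, with a line at the median. Medians are 39.9% in parthenotes and 46.2% in B1PN embryos called parthenogenetic, and 8.24% in B1PN and 8.92% in B2PN embryos.

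Other globin genes of the alpha locus were nearly silent, and other globins and alpha pseudogenes were low. Hbq1a and Hbq1b, theta-type globin genes of the cluster, had counts in 20 and 26 of all embryos compared, with mean levels of 0.195 and 0.405 CPM. The alpha pseudogenes Hba-ps3 (chromosome 15) and Hba-ps4 (chromosome 17) each had counts in 6 embryos. For Hba-ps3 these were 2 parthenotes and 4 B2PN embryos, and for Hba-ps4 all 6 were B2PN. Of 8 other globin genes listed, 4 had a row and Hbq1b, Mb (myoglobin) and Ngb (neuroglobin) were tested. Against B2PN embryos their edgeR adjusted p ran from 0.396 to 0.495 in parthenotes and from 0.77 to 0.906 in J2PN embryos. Mb had counts in 20 of 31 parthenotes (mean 1.67 CPM) and 18 of 43 B2PN embryos (mean 0.845 CPM). It also had counts in 6 of 8 B1PN embryos called parthenogenetic (mean 2.17 CPM).

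Neighbours of the alpha cluster were compared in the same contrasts. In J2PN against B2PN embryos 4 of 7 tested neighbours fell and the other 3 were not called, beside 40.2% of all genes called, with a median log2 fold change of -1.32 beside -0.06 over all genes. Nprl3, a regulator of mTORC1 whose introns hold alpha-globin enhancers, fell by 2.37 (SE 0.51, edgeR adjusted p = 8.09e-05). Its level ran from 0 to 78.9 CPM in B2PN embryos, with a median of 2.92, and from 0 to 6.91 CPM in J2PN embryos, with a median of 0.510, so the ranges overlapped. Stk10, a kinase gene, fell by 3.05, Rhbdf1 by 1.88 and the DNA repair gene Mpg by 1.31 (edgeR adjusted p = 2.58e-13, 0.0308 and 0.0496). In parthenotes against B2PN embryos, where 44.4% of all genes were called, 1 neighbour rose (Il9r, 1.57) and 1 fell (Stk10, by 1.25). Il9r had counts in only 11 of 31 parthenotes and 9 of 43 B2PN embryos, with a median of 0 CPM in both groups. Nprl3 was at -0.25 in that contrast (edgeR adjusted p = 0.626).

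Erythroid transcription factors were called about as often as all genes. In parthenotes against B2PN embryos 3 of 12 tested rose and 2 fell, beside 44.4% of all genes called, with a median of 0.07 beside 0.19 over all genes. Gata1, the factor that drives red cell differentiation, fell by 1.11 (SE 0.28, edgeR adjusted p = 0.00067), with medians of 34.1 CPM in parthenotes and 67.5 CPM in B2PN embryos. Lmo2, a bridging protein of the Gata1 complex, rose by 2.94, while Nfe2 fell by 1.35 (edgeR adjusted p = 0.000263 and 0.0138). Lmo2 had counts in only 10 of 31 parthenotes and 7 of 43 B2PN embryos, with a median of 0 CPM in both groups. Klf1, which activates adult beta globin, had counts in 9 of 31 parthenotes and 13 of 43 B2PN embryos and was at -0.37 (edgeR adjusted p = 0.688). In J2PN against B2PN embryos 4 rose and 1 fell, beside 40.2% of all genes called. Gata1 fell there by 0.84 (edgeR adjusted p = 0.0297), and Myb, Zfpm1, Sox6 and Ldb1 rose (log2 fold changes 3.68, 3.11, 2.74 and 1.18). Myb had counts in only 7 of 21 J2PN and 6 of 43 B2PN embryos, with a median of 0 CPM in both groups.

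Genes of heme synthesis were also called about as often as all genes in parthenotes, where 3 of 11 tested rose and 2 fell beside 44.4% of all genes called, with a median of 0.40 beside 0.19 over all genes. Uros, Abcb10 and Ppox rose (1.46, 1.03 and 0.49). Urod, uroporphyrinogen decarboxylase, fell by 0.59 (edgeR adjusted p = 0.0259), and Alas1, the first enzyme in most tissues, fell by 0.56 (edgeR adjusted p = 0.0265). Alas2, its counterpart in red cells, had counts in 10 of 31 parthenotes and 8 of 43 B2PN embryos and was at 1.15 ± 0.67 (edgeR adjusted p = 0.155). In J2PN against B2PN embryos 1 fell, Tmem14c by 0.69, and 0 rose, beside 40.2% of all genes called.

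Of 6 genes of heme breakdown and iron storage, 1 rose and 1 fell in parthenotes beside 44.4% of all genes called, with a median of 0.16 beside 0.19 over all genes. In J2PN against B2PN embryos 4 rose and 1 fell beside 40.2% of all genes called, with a median of 0.69 beside -0.06. Hmox1, the inducible heme oxygenase, had a median of 28.9 CPM in parthenotes (3.52 to 109.4) and 3.43 CPM in B2PN embryos (0 to 33.7). It rose by 2.47 (SE 0.44, edgeR adjusted p = 1.68e-06) in parthenotes. It also rose by 1.92 in B1PN embryos called parthenogenetic and by 2.08 in J2PN embryos (edgeR adjusted p = 0.0186 and 0.000213). A link between the globin level and Hmox1 was not tested. Its constitutive counterpart Hmox2 fell by 1.25 in parthenotes (edgeR adjusted p = 1.49e-05). The ferritin genes Fth1 and Ftl1 rose in J2PN embryos, by 0.76 and 0.62 (edgeR adjusted p = 3.95e-05 and 0.0162). Of the biliverdin reductases, Blvrb rose there by 2.27 and Blvra fell by 1.70 (edgeR adjusted p = 0.000149 and 2.18e-06). These contrasts share the B2PN embryos.

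Red cell markers were measured beside the globins. Of 22 markers 19 had a row. Their summed level ran from 629.7 to 2076 CPM in parthenotes and from 408.1 to 1678 CPM in B2PN embryos, and was held mainly by Tfrc and Bpgm, which every embryo expressed. Slc4a1, the anion exchanger of the red cell membrane, had a median of 1.19 CPM in parthenotes and 0 in B2PN embryos. It had counts in 17 of 31 and 15 of 43. Epb42, another marker of this list, had counts in 6 of 31 parthenotes and 10 of 43 B2PN embryos. Its means were 0.319 CPM in parthenotes and 0.542 CPM in B2PN embryos. Of 14 markers tested, 3 rose in parthenotes and 1 fell, beside 44.4% of all genes called, with a median of 0.30 beside 0.19. The risers were Car2 (3.92), Epor (1.86) and Slc4a1 (1.63, edgeR adjusted p = 0.0214), and the faller was Gata1, which is on this list too. Trim58 was at 0 in both groups.

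Markers of other cells were measured in the same way. Of 5 tested cumulus and granulosa markers 3 rose in parthenotes and 0 fell, beside 44.4% of all genes called, with a median of 2.18 beside 0.19. Their summed level ran from 6.30 to 94.4 CPM in parthenotes, 0.281 to 36.7 CPM in B2PN and 0 to 34.7 CPM in J2PN embryos. Tnfaip6, made by cumulus cells around the egg, had medians of 24.3 and 3.83 CPM in parthenotes and B2PN embryos. Fshr, Ptx3 and Lum were at 0 in parthenotes. White blood cell and platelet markers gave 4 risers and 1 faller of 8 in parthenotes beside that 44.4%, with a median of 1.13 and summed levels of 53.7 to 523.4 CPM against 6.21 to 220.1 CPM in B2PN embryos, while Cd3e and Pf4 were at 0 in parthenotes. Of 5 endothelial markers Cdh5 and Cldn5 rose in parthenotes and 0 fell, beside 44.4% of all genes called. The median of the 5 was 0.70 beside 0.19 over all genes. Their summed levels were 6.30 to 93.5 CPM in parthenotes against 4.73 to 83.3 CPM in B2PN embryos. The part of these markers in the globin levels was not tested.

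Within groups, alpha globin varied along with other transcripts. Across the 43 B2PN embryos the rank correlation of the sum was -0.531 with summed oocyte-derived markers, 0.745 with heme breakdown and iron storage genes, 0.610 with white blood cell and platelet markers, 0.563 with cumulus markers, 0.437 with endothelial markers and -0.266 with red cell markers. Across the 31 parthenotes these were -0.117, 0.192, 0.435, 0.279, 0.481 and -0.076, the highest being with endothelial markers. In B2PN embryos and parthenotes the correlation was -0.058 and 0.117 with erythroid transcription factors, and 0.301 and -0.224 with heme synthesis genes. It was -0.285 and 0.203 with other globins, and 0.253 and -0.290 with neighbours of the alpha cluster. With 2-cell stage markers it was 0.155 and -0.058. These correlations are descriptions of embryos that share the CPM scale. In B2PN embryos the heme breakdown and iron storage sum had a mean of 1450 CPM, held mainly by the ferritin genes. Fth1 had a mean of 997.6 CPM there and Ftl1 of 289.7 CPM, beside 5.69 CPM for Hmox1. The red cell sum was held mainly by Tfrc and Bpgm, as given above. Total counts correlated at -0.174 in B2PN embryos and -0.294 in parthenotes. The number of genes with counts correlated at 0.379 and 0.330. Hba-a1 and Hba-a2, which share reads, correlated at 0.795 in B2PN embryos and 0.470 in parthenotes.

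The genes whose levels ran most like the sum, by mean Spearman's rho over B2PN and parthenote embryos among 18831 genes, were Mmp11, Chchd10, Tmsb15b1, Tmsb15l and Tuba1a. Mmp11, a secreted matrix metalloproteinase, had a rho of 0.84 in B2PN embryos and 0.56 in parthenotes (mean 0.70). The other 4 means ran from 0.66 to 0.69, against a 99th percentile of 0.44 and a median of 0.03. Mmp11 was at -0.14 ± 0.22 in parthenotes against B2PN embryos (edgeR adjusted p = 0.646), with medians of 35.5 and 32.3 CPM. Tmsb15b1, a beta-thymosin gene, rose by 2.50 (SE 0.34, edgeR adjusted p = 5.03e-10) in the same comparison and fell by 1.67 in J2PN against B2PN embryos (edgeR adjusted p = 0.00102).

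**Figure D4:**
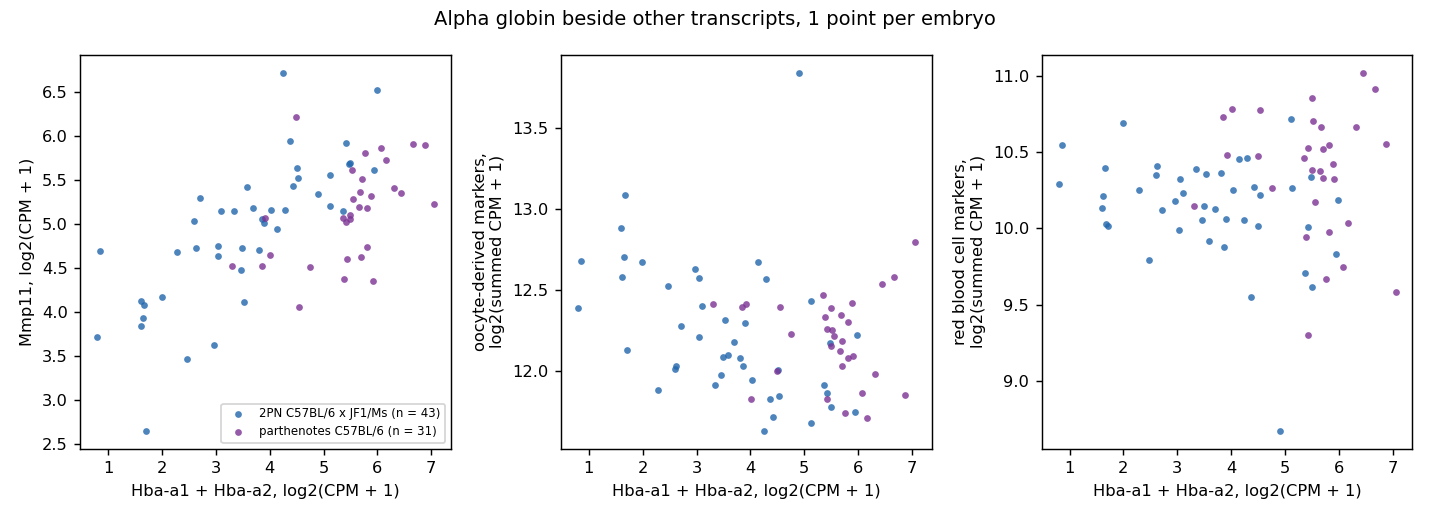
Alpha-globin level against Mmp11, oocyte-derived markers and red cell markers in 43 B2PN embryos and 31 parthenotes, all as log2(CPM + 1), 1 point per embryo. In B2PN embryos Mmp11 runs with alpha globin (rho 0.84) and oocyte-derived markers run against it (rho -0.531). The red cell marker sum, held mainly by Tfrc and Bpgm, relates weakly to alpha globin there (rho -0.266).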

How the data were processed

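Single 2-cell embryos were sequenced from SMART-Seq v4 and Nextera XT libraries, per the labels' protocols. Per the submitters' processing notes, HISAT2 2.0.5 and featureCounts 2.0.0 were used with GRCm38. The authors deposited estimated counts per gene, unscaled, with 28.4% of nonzero values not whole. Annotation release, use of strand and handling of shared reads are not given in sources used here. Counts were rounded for testing. Python 3.11.15 computed CPM against total gene counts. edgeR 4.0.16 in R 4.3.3 was fitted (quasi-likelihood test, TMM factors, filterByExpr by group, one fit of 7 group means) to 24380 genes, with p-values adjusted by Benjamini-Hochberg and called under 0.05. The summed copies were fitted in a table where their sum replaced both rows. The test was checked on simulated data in a single contrast. Changes were set only in genes of higher mean level than Hba-a2 had in B2PN embryos. Groups follow the labels, and 4 libraries labelled dead or of low quality were left out.

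The members and gene lists were chosen with earlier results of these data known. Rows for the beta-type genes were planned and not analysed here, so likeness was measured to the summed alpha copies only. Lists are described by counts past the threshold, with up to 4 members of smallest p and preset best-known members named. A planned gene of the heme synthesis list is not reported here and was left out of that list's counts. Other markers named were chosen after their values were seen. Likeness was computed for genes averaging 1 CPM or more. No pair of libraries within a group looked like 1 library deposited in 2 copies, the lowest chi-square per gene being 15.0. Embryo numbers shared by parthenotes and B2PN embryos did not pair them. The alternatives were DESeq2 1.42.0, limma 3.58.1 with voom, no filter, a block on embryo number, later listings left out, single embryos left out and, chosen after seeing the data, edgeR's version 4 fit, J2PN embryos under 1500000 counts left out, and other minimums for the Hba-a2 share.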

Additional observations from a re-analysis of the deposited data

Results flagged for a closer look

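In the 4 J1PN embryos called parthenogenetic, 1 embryo stood apart from the rest for Hba-a2, at 0.653 CPM (1 count), and 1 for Hba-x, at 2.00 CPM (2 counts). In the 8 B1PN embryos called parthenogenetic, 1 embryo stood apart for Hba-x, at 3.18 CPM (10 counts). Each was the single embryo with a count in a group otherwise at 0, which is always marked in this way, so these 3 of 8 groups of values cannot be set against the 1 in 20 that chance marks among groups without such zeros.

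The effect of the parthenogenetic call on Hba-a2 differed between crosses by 5.45 on the log2 scale (SE 1.78, edgeR adjusted p = 0.0238), resting on 1 Hba-a2 count in the 4 J1PN embryos called parthenogenetic.

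Among libraries outside the comparisons, the B1PN libraries labelled of low quality held 13.1 and 45.7 CPM of alpha globin, and 6 Hba-x counts were found in the second. The library labelled dead held 1 alpha-globin count, and the J2PN library labelled of low quality held 0 of 4803 gene counts.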

How the results depend on the processing

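In the contrasts with a test, the summed alpha level kept its direction and side of the threshold in all alternative fits except with DESeq2, which called the fall in J1PN against J2PN (-3.43, adjusted p = 0.0413) and the difference between crosses of the 1PN effect (3.98, adjusted p = 0.0336). DESeq2 called the same for Hba-a1 (-4.78 and 5.39, adjusted p = 0.0356 and 0.0276). Hba-a2 in J1PN embryos called parthenogenetic against J2PN was called with DESeq2 (-3.60, adjusted p = 0.0319) and without embryo 3 (-5.49, edgeR adjusted p = 0.0445). Hba-a1 in B1PN embryos called parthenogenetic against B2PN turned to -0.39 with limma voom, to -0.81 with a replicate block and ran from -0.47 (without embryo 7) to 0.14 with 1 embryo left out, and its difference between crosses to -0.24 with voom. Hba-a2 in the former contrast lost its call with the replicate block (2.08, edgeR adjusted p = 0.0796); its difference between crosses lost it with the block, edgeR's version 4 fit and without later listings (edgeR adjusted p = 0.0644, 0.0586 and 0.0881). Hba-a2 in J2PN against B2PN was called without later listings (-1.69, edgeR adjusted p = 0.0201). The mean Hba-a2 share of B1PN embryos was -0.154 points from that of B2PN embryos, and 0.988 points above it with at least 1 summed count. The cause was not tested in any of these.

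Counts of called genes moved more. For B1PN against B2PN, 148 genes became 28 with DESeq2, 48 with edgeR's version 4 fit, 0 with voom (1659 genes had an unadjusted edgeR p under 0.05), 652 without filter, 0 with the replicate block, 89 without later listings, and 41 to 192 with 1 embryo left out (41 without B1PN embryo 9). For J1PN against J2PN, 9 became 681, 2, 43, 136, 0 and 5 in the same order, 5 without shallow J2PN embryos, and 9 to 18 with 1 embryo left out. For the 1PN effect between crosses, 5 became 515 with DESeq2, 0 with the version 4 fit, 46 without filter, 0 with the block, 9 without shallow J2PN embryos, 0 without later listings and 0 to 9 with 1 embryo left out. For parthenotes against B1PN called parthenogenetic, 457 became 1214 with the version 4 fit, 692 with voom, 1760 without filter and 25 with the block. For B1PN called parthenogenetic against B2PN, 5455 became 2017 with the block and 3480 without later listings. For the call effect between crosses, 4058 became 1981 with the block and 2384 to 4683 with 1 embryo left out (2384 and 2459 without J1PN embryos 1 and 2 called parthenogenetic).

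Same-numbered parthenotes and B2PN embryos had a mean correlation of deviations of 0.0315 over 31 numbers, and 2 correlated best with their own number. With at least 10 counts asked for, the share of embryos with alpha globin was 83.7% in B2PN, 33.3% in J2PN and 0% in J1PN and J1PN called parthenogenetic. The J1PN embryos and those called parthenogenetic held only 5 and 9 alpha-globin counts in all, over 3 and 4 embryos, and fold changes there rest on these few counts.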

Other observations

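The listings of the samples fall into an earlier and a later run of titles, which the labels do not call a batch. B2PN embryos of the earlier run had a median alpha-globin level of 11.99 CPM (n = 29) and those of the later run 8.41 CPM (n = 14). J2PN embryos had medians of 1.501 CPM (n = 16) and 2.27 CPM (n = 5). All parthenotes were in the earlier run.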
